A study of Mus musculus with 96 samples.

Results

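Suz12 is a core subunit of Polycomb repressive complex 2 (PRC2), the enzyme complex that methylates histone H3 on lysine 27 to give H3K27me3, a mark of silenced genes. In mammals PRC2 gathers mainly at CpG islands, many of them at the promoters of developmental transcription factors that stay off in mature neurons. H3K4me3 marks active promoters, and a promoter that carries both marks is called bivalent. The regions described here are the Suz12 peaks of hippocampal neuronal nuclei that lie outside promoters: every peak of the Suz12 NeuN+ table whose annotation was intergenic, intronic, exonic or UTR, without a short stretch of chromosome 2 whose 4 peaks run from 98662501 to 98667360. The rule gave 300 of the 775 peaks of that table and of the 22815 peaks of all 6 tables, 471 peaks were at promoters, and 4 were left out on chromosome 2. Promoter meant within about 2 kb of a gene start in this annotation: the nearest member, in an intron of Cyp26b1, lay 2032 bp from a start with a mean value of 7.19 in WT, and the farthest promoter peak, of Zc3h7a, lay 1995 bp from one with a mean of 123.5.

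The nuclei came from hippocampi of mice 6 months of age that were wild type (WT), Mutyh-/-, Ogg1-/- or Mutyh-/-xOgg1-/- (DKO), on a C57BL/6N background per the study's methods. Mutyh and Ogg1 are DNA glycosylases of base excision repair. Ogg1 removes oxidized guanine, and Mutyh removes adenine wrongly placed opposite it. The knockouts were of the whole animal rather than of neurons alone. Hippocampi of several animals of 1 genotype were pooled for each replicate, and nuclei were sorted into neuronal (NeuN+) and non-neuronal (NeuN-) fractions before ChIP-seq for Suz12, H3K27me3 and H3K4me3, with 3 replicates for each of the 4 genotypes. Of 12 neuronal marker genes, 10 had an H3K4me3 promoter peak in the NeuN+ table and 0 in the NeuN- table. Of 16 non-neuronal marker genes, 3 had one in NeuN+ and 2 in NeuN-, so by these peaks the NeuN- fraction was not marked out by its own genes. The NeuN- table held fewer H3K4me3 peaks, with a WT median of 8.88 at promoter peaks against 24.1 in NeuN+, so these counts do not measure purity. The study checked purity by probing the sorted populations again and by staining.

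Values are reads per peak divided by a library factor, so that 1 read was worth 0.788 to 1.34. The 12 Suz12 NeuN+ libraries held 5445 to 21742 reads in peaks outside the chromosome 2 region, and a median member held 4 to 10 reads per library. Between 45 and 95 members were at 0 in any 1 library. In WT, the median member had a mean of 7.60, and the median coefficient of variation over the 3 libraries was 89.5%. Spearman correlations over the members were 0.0861 to 0.554 between libraries of 1 genotype (mean 0.298, 12 pairs), and averaged 0.299 between libraries of different genotypes (54 pairs). The 18 pairs between genotypes that share a replicate number averaged 0.389. Each correlation runs over the 300 members, which share the depth of their 2 libraries.

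By sequence the members fell into 3 kinds. CpG-rich members, with at least 50% G and C bases and a CpG observed/expected ratio of at least 0.6, numbered 88 of 300 (29.3%), whereas 400 of 471 promoter peaks (84.9%) met the same definition. Repeat members, with at least 50% of their bases masked as repeats in the GRCm38 assembly, numbered 77 (25.7%), against 2 promoter peaks. The other 135 members (45.0%) were neither. A CpG-rich member held a median of 34.5 CpG dinucleotides, close to the 42 of a CpG-rich promoter peak, and the members that were neither held 4. The central 120 bases of 8 named members are given here from the plus strand of GRCm38.p6, with each CpG in capitals, to show these kinds side by side. Uncx (chr5:139547094-139547213) and Pax7 (chr4:139821424-139821543) stand for CpG-rich members at developmental regulators. Axin2 (chr11:109011910-109012029) and Cdk8 (chr5:146260999-146261118) stand for CpG-rich members that were also peaks in every other table. What either sequence derives from was not tested. Pak3 (chrX:143482997-143483116) was also a peak in every other table but counted as neither CpG-rich nor repeat, with 22.5% of its window masked. Trpm8 (chr1:88290802-88290921) lies in an array of neighbouring peaks. The kinds rest on base composition and masking alone, so a member that is not masked may still be repeated sequence. 4933422A05Rik (chr9:35305395-35305514) and Mir101c (chr9:3015272-3015391) are repeat members.
Uncx: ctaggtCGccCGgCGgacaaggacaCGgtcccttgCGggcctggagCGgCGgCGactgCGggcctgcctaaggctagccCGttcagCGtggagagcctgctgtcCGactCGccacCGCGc
Pax7: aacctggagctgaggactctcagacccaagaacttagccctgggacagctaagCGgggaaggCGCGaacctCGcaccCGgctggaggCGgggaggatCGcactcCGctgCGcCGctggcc
Axin2: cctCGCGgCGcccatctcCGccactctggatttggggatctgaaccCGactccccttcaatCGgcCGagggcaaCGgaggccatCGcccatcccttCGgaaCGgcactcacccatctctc
Cdk8: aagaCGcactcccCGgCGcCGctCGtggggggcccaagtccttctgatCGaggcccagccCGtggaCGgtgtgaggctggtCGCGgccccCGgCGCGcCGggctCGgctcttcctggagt
Pak3: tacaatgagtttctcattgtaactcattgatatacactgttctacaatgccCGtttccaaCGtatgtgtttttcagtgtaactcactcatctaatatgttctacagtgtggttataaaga
Trpm8: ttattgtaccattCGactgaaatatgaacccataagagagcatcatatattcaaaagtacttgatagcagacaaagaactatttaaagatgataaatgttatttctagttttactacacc
4933422A05Rik: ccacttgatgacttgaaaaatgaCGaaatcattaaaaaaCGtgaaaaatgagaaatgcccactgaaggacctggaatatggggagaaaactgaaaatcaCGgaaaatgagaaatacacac
Mir101c: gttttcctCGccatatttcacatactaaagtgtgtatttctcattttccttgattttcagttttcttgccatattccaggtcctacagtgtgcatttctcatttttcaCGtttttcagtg
The windows at Uncx and Cdk8 hold 15 CpG each, Axin2 11 and Pax7 10, whereas Pak3 and Mir101c hold 2, Trpm8 1 and 4933422A05Rik 3. All bases of the last pair of windows named above, 4933422A05Rik and Mir101c, are masked.

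**Figure D1:**
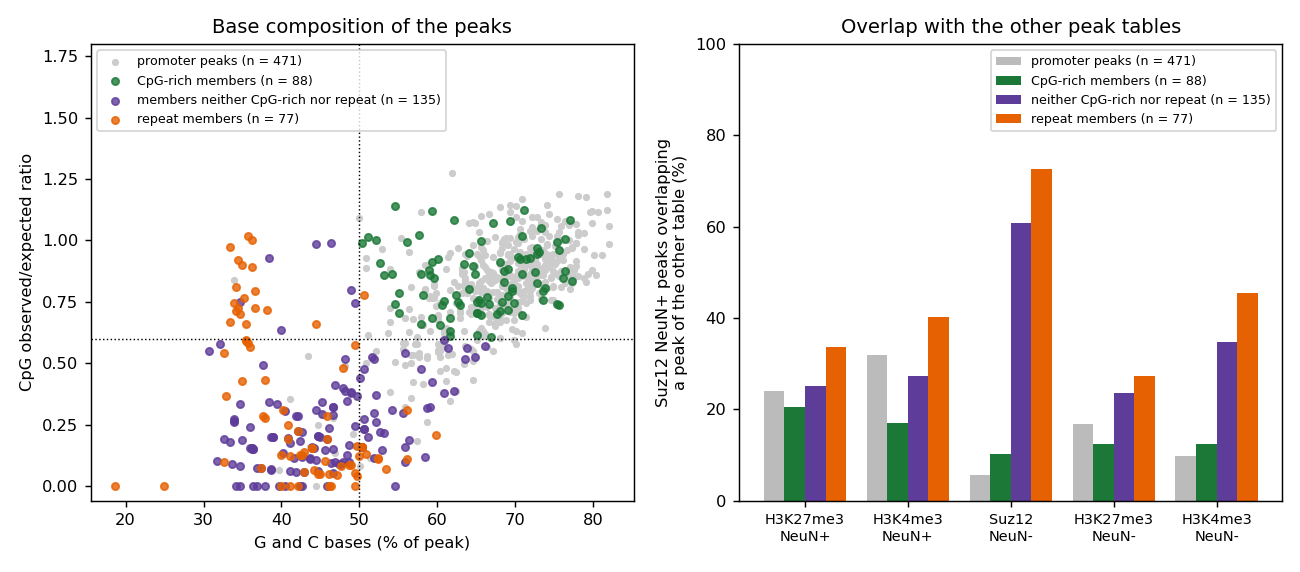
Left, G and C content (% of bases) against the CpG observed/expected ratio of each Suz12 NeuN+ peak, with dotted lines at the limits that define CpG-rich. Right, share (%) of each kind of peak that overlaps a peak of another table by at least 1 bp; 72.7% of repeat members and 5.73% of promoter peaks overlap a Suz12 NeuN- peak.

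Many CpG-rich members lay at developmental transcription factors. The list of developmental transcription factors matched 44 members of 39 genes (14.7% of members, against 163 or 34.6% of promoter peaks), and 40 of the 44 were CpG-rich. The median CpG-rich member lay 4760 bp from a gene start, and 44 of 88 (50.0%) had a Suz12 promoter peak within 10 kb, against 20 of 135 members that were neither CpG-rich nor repeat (14.8%). Exons held 33 of them, intergenic sequence 30, introns 14 and UTRs 11. The word CGCGCG (its own reverse complement) was in 28 of 88 CpG-rich members (31.8%), in 163 of 400 CpG-rich promoter peaks (40.8%) and in 1 of the 212 other members.

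The homeobox gene Uncx (exon, chr5:139546954-139547354) had Suz12 values of 24.1, 30.7 and 43.0 in WT, 7.38, 38.3 and 28.4 in Mutyh-/-, 4.95, 24.7 and 8.46 in Ogg1-/- and 15.3, 35.5 and 39.4 in DKO. The first replicate was the lowest of its genotype each time, and the 4 groups overlapped. The T-box gene Tbx1 (3' UTR, chr16:18581997-18582397) had a WT mean of 23.5, with each of its 75-base words present at 2 places in the genome. Gdf7 (exon), a secreted ligand of the BMP family, had WT values of 10.7, 31.7 and 18.8. A CpG-rich member lay near Cbx8, a gene of a Polycomb component itself, with WT values of 10.7, 7.92 and 14.8. A member in an intron of Jarid2, a PRC2 cofactor, had WT values of 14.8, 32.7 and 44.3; it was neither CpG-rich nor repeat. Olig2, a transcription factor of oligodendrocyte lineage cells and 1 of the non-neuronal markers, had a member with WT values of 1.34, 14.9 and 21.5. None of the 12 neuronal markers had a member.

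Of the other lists, signalling ligands and receptors matched 2 members, axon guidance and adhesion genes 3 and channels and receptors 7. Small or unnamed transcripts matched 82 (27.3%), of which 42 were repeat members and 57 overlapped a Suz12 NeuN- peak.

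A small set of members carried much of the Suz12 signal and was shared by all tables. In all, 31 members (10.3%) overlapped a peak in each of the 5 other tables (H3K27me3 and H3K4me3 in NeuN+, and all 3 targets in NeuN-), against 4 of 471 promoter peaks. They were 6 CpG-rich, 13 repeat and 12 other members. They held between 14.7% and 43.3% of the Suz12 peak reads of a library outside the chromosome 2 region (median 21.0%). The 111 members that overlapped no peak of another table held 6.14% to 8.63%, and 61 of them were CpG-rich. The median of the WT means was 26.0 over the shared members and 10.2 over those shared with no table.

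Of the 11 members with the highest WT means, 10 were among the shared ones; the exception lay on chromosome Y, near Gm20736, with WT values of 2.68, 0 and 217. The highest, in an intron of 4933422A05Rik (chr9:35305255-35305655, a repeat member), had values of 323, 556 and 413 in WT, 484, 484 and 303 in Mutyh-/-, 30.7, 183 and 368 in Ogg1-/- and 244, 171 and 485 in DKO. An intergenic member 68149 bp from Axin2, a feedback inhibitor of Wnt signalling (chr11:109011770-109012170), had 164, 335 and 400 in WT, 67.2, 398 and 367 in Mutyh-/-, 125, 347 and 292 in Ogg1-/- and 153, 390 and 466 in DKO. At both members the genotypes overlapped, and at Axin2 the first replicate was again the lowest of each. An intergenic member near Pak3 on chromosome X, a kinase gene of neurons, had WT values of 418, 367 and 57.7. The member in an intron of Cdk8, a kinase of the transcriptional Mediator complex, had WT values of 156, 270 and 334, and that near Pex2, a peroxisome assembly gene, had 107, 247 and 242. Members near Ly6c2, in an intron of Filip1l, at Gm5458 and in an intron of Ccdc3 had WT means of 165.4, 143.4, 79.1 and 71.8. Since the spread of these means over 3 libraries was wide, their order was not tested.

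At the highest shared members H3K27me3 of the same nuclei was also high. The H3K27me3 NeuN+ peak at Axin2 had a WT mean of 253.7 ± 53.3 (SD, n = 3), at percentile 99.9 of the 4132 peaks of its table, and the one at Cdk8 had 202.3 ± 39.9. At Ly6c2 the H3K27me3 mean was 392.5 ± 103.6 and the H3K4me3 mean 171.4 ± 26.8, so the values of both marks were high. The Suz12 NeuN- peak there had a WT mean of 149.3 ± 36.7. Whether either mark was enriched over input at this member was not tested. The Suz12 NeuN- peak at 4933422A05Rik had a WT mean of 996.3 ± 323.0, above its value in NeuN+, but the 2 tables were normalized separately and the difference was not tested. At Filip1l, by contrast, the H3K4me3 mean was 17.5 ± 9.64, at percentile 28.2 of its table. The input libraries are not analysed here.

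**Figure D2:**
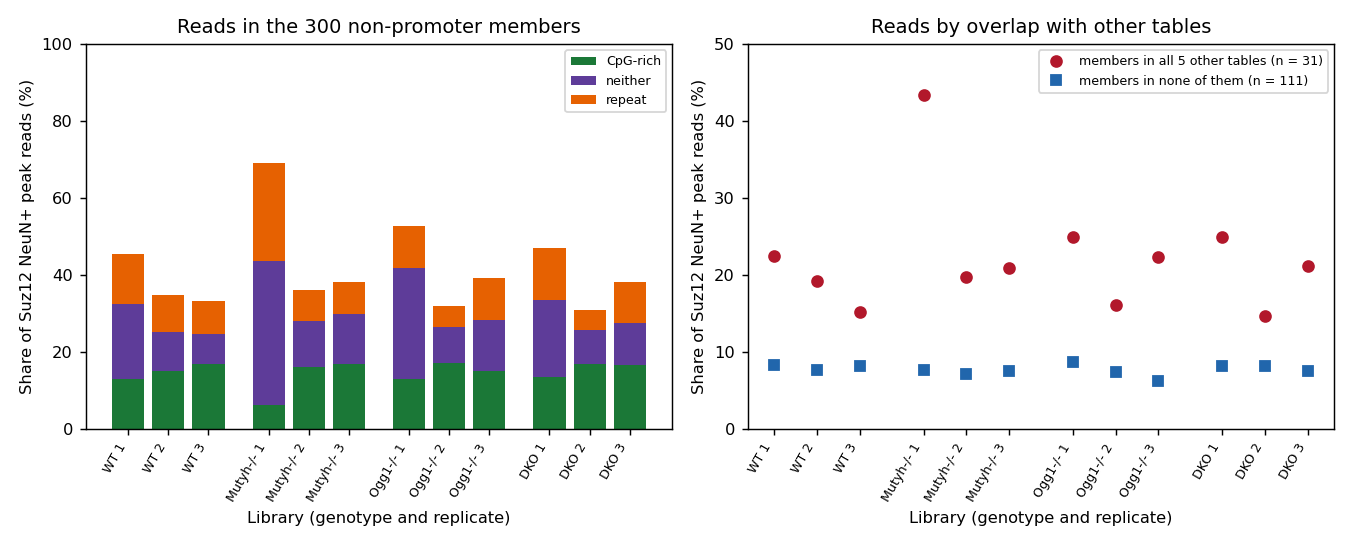
Share (%) of Suz12 NeuN+ peak reads outside the chromosome 2 region, in each of the 12 libraries. Left, the 300 members stacked by kind; right, the 31 members that overlap a peak in all 5 other tables (circles) and the 111 that overlap none (squares), which span 14.7% to 43.3% and 6.14% to 8.63%.

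Many members were packed into arrays, among them 9 of the 31 members shared by all tables. Runs of at least 5 members with gaps of at most 100 kb held 118 of the 300 (39.3%) in 11 clusters, and 0 of the 118 were CpG-rich. The largest by count, 20 members over 250.1 kb of chromosome 4 (147336938-147587024), lay among the zinc-finger genes Zfp982 and Zfp985, and there a median of 51.1% of the 75-base words of a member, the length of a read, occurred more than once in the genome. Other clusters lay at Mroh2a and Trpm8 (13 members, median 0% repeated words), Gm21190 and Speer4d (14), Zfp981 and Zfp992 (12), Or1f19, an olfactory receptor (11), Pisd-ps1 and Sfi1 (8), Prl2c2 and Prl2c3, prolactin-family genes (6), Vmn1r3, a vomeronasal receptor (6), Speer4e (5) and Tmem267 (5). In clusters, 80 of 118 members overlapped a Suz12 NeuN- peak (67.8%), whereas 9 of 88 CpG-rich members did (10.2%). Repeated words were found in 132 members (44.0%) and in 26 promoter peaks (5.52%), and how reads with several places in the genome were treated is not given in the sources used here.

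The cluster at Mir101c (18 members over 36.0 kb, chr9:3000223-3036254) shared a sequence. The 9-base word GGAATATGG or its reverse complement CCATATTCC, which is part of the mouse major satellite repeat of centromeric heterochromatin, was present in 18 of 18 members of this cluster. It was present in 26 of all 300 members (8.67%), in 0 of 88 CpG-rich members and in 1 of 471 promoter peaks (0.212%), and in 3 of the 4 peaks left out on chromosome 2. The windows printed above show it in 4933422A05Rik and in Mir101c. All 26 members with the word overlapped a Suz12 NeuN- peak, 8 overlapped an H3K27me3 NeuN+ peak, and their WT means ran from 0 to 430.7. The word was chosen after the sequences had been seen. Together the 26 held 3.57% to 17.9% of the Suz12 peak reads of a library outside the chromosome 2 region. Runs of GAGAGAGA, on either strand, were in 23 members (7.67%) and 16 promoter peaks (3.40%), and CACACACA in 18 (6.00%) and 6 (1.27%).

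How the overlap with histone marks compared with that of promoter peaks depended on the overlap asked for. With at least 1 bp, an H3K27me3 NeuN+ peak overlapped 78 members (26.0%) and 113 promoter peaks (23.99%), an H3K4me3 NeuN+ peak 83 (27.7%) and 150 (31.8%), and both marks 43 members (14.3%) and 53 promoter peaks (11.3%). No NeuN+ mark peak overlapped 182 members. With an overlap of more than 200 bp, most of the width of a peak, H3K27me3 was shared by 61 members (20.3%) and 59 promoter peaks (12.5%), and with a gap of up to 1000 bp allowed by 135 members (45.0%) and 257 promoter peaks (54.6%). These shares were not tested. For Suz12 in the other cell fraction the shares lay further apart: 147 members (49.0%) and 27 promoter peaks (5.73%) overlapped a Suz12 NeuN- peak. Of developmental transcription factor members, 1 of 44 overlapped an H3K27me3 NeuN+ peak and 0 of 44 a Suz12 NeuN- peak.

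Where a member and a mark met, the H3K27me3 signal was deep. Among non-promoter H3K27me3 peaks of NeuN+ nuclei, the 76 with a member had more reads per peak than the 2959 without one in 12 of 12 libraries, by 3.45 ± 0.609 on the log2 scale (mean of library ratios ± SD, n = 12; p = 0.000488, exact two-sided sign-flip test, the smallest it can give). Without the members shared by all tables the difference was 1.75 ± 0.226, again in 12 of 12 libraries (45 peaks, exact p = 0.000488), and among CpG-rich H3K27me3 peaks alone, 16 with and 51 without a member, it was 3.08 ± 0.320 (exact p = 0.000488). For H3K4me3 the mean difference was 0.28 ± 0.884 and higher in 7 of 12 libraries (82 against 772 peaks, exact p = 0.297). It turned to -0.88 ± 0.449 without the shared members (exact p = 0.000488) and was 0.96 ± 0.453 at the 15 peaks with a CpG-rich member (exact p = 0.000488), so the direction for H3K4me3 depended on which members were counted. For both marks the shared members were left out only on the side with a member, while all 2959 and 772 peaks without one were kept. The CpG-rich comparisons of both marks kept the shared members. Of the 18 CpG-rich members that overlapped an H3K27me3 NeuN+ peak, 6 were shared, and no CpG-rich value without shared members was taken. Shared members are defined by overlap with peaks of these marks among others, so the p-values without them are not an independent test of either mark. The 12 libraries include 4 genotypes and are not repeats of 1 condition.

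Whether members held fewer Suz12 reads than promoter peaks depended on the same few peaks. Mean reads per member against mean reads per promoter peak gave a log2 ratio of 0.14 ± 0.660, above 0 in 5 of 12 libraries (exact sign-flip p = 0.549). Without the peaks shared by all tables (269 members, 467 promoter peaks) the ratio was -0.75 ± 0.626, below 0 in 10 of 12 libraries (exact p = 0.00391), and with medians in place of means it was -0.64 (exact p = 0.0449). The CpG-rich members followed the same pattern with less spread: 0.34 ± 0.0915 in all and -0.54 ± 0.0872 without shared peaks, 12 of 12 libraries on 1 side each time (exact p = 0.000488 for both). The choice to leave out shared peaks was made after the data had been seen. It took out 31 of 300 members but only 4 of 471 promoter peaks, and with them 18 of the 30 members highest in WT. The ratio was bound to fall by this, so the p-values without shared peaks do not test members against promoter peaks.

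**Figure D3:**
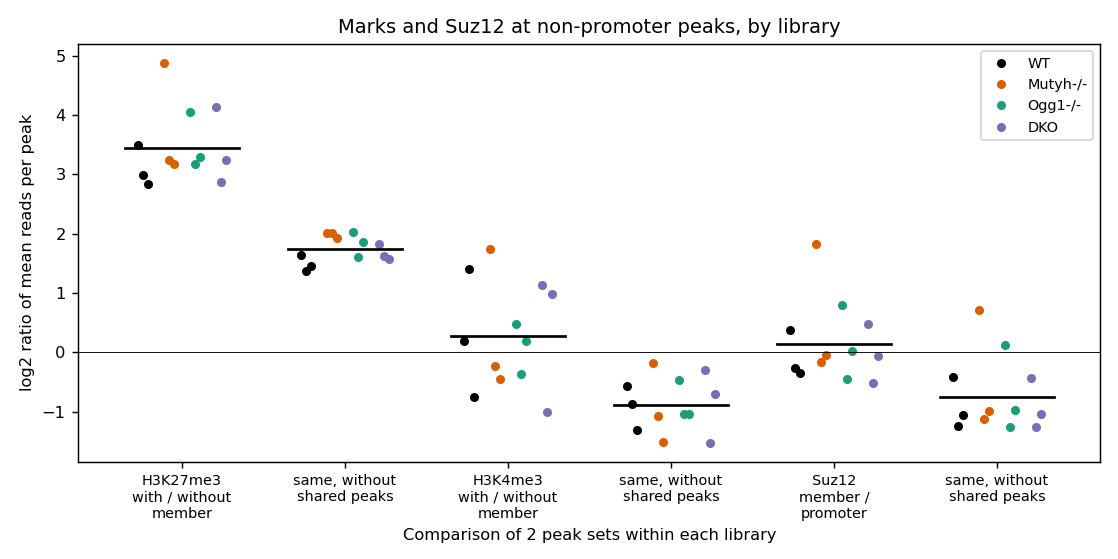
Log2 ratio of mean reads per peak between 2 sets of peaks in each of the 12 libraries (points, coloured by genotype; bars, means). Shared peaks are those that overlap a peak of every other table. For H3K27me3 and H3K4me3 they were left out only on the side with a member. Leaving them out moved the mean from 3.45 to 1.75 for H3K27me3, from 0.28 to -0.88 for H3K4me3 and from 0.14 to -0.75 for Suz12.

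The question across genotypes was whether loss of the glycosylases changed Suz12 at these peaks. Of Suz12 peak reads outside the chromosome 2 region the members took 45.3%, 34.7% and 33.2% in WT and 69.2%, 36.2% and 38.2% in Mutyh-/-. They took 52.7%, 31.9% and 39.3% in Ogg1-/- and 46.9%, 30.8% and 38.0% in DKO. The first replicate had the highest share in every genotype, and the groups overlapped. The lowest share, 30.8%, had a 95% Wilson interval of 30.0% to 31.6%, and the highest, 69.2%, one of 68.1% to 70.3%, which cover counting error only. Means were 37.8% ± 6.58 in WT (SD, n = 3), 47.9% ± 18.5 in Mutyh-/-, 41.3% ± 10.55 in Ogg1-/- and 38.6% ± 8.07 in DKO. The differences from WT had exact two-sided permutation p-values of 0.5, 0.7 and 0.9 (0.9 after adjustment over the 3), where 3 against 3 cannot go below 0.1, and all 9 knockout libraries against 3 WT gave an exact p of 0.559. Within replicate numbers the Mutyh-/- minus WT differences were 23.9, 1.44 and 5.00 percentage points, those of Ogg1-/- 7.38, -2.87 and 6.06, and those of DKO 1.57, -3.97 and 4.78. Without the first Mutyh-/- replicate the difference of means went from 10.1 to -0.556, so that library set the direction. Without the first Ogg1-/- replicate the Ogg1-/- difference went from 3.52 to -2.18, and without the first DKO replicate the DKO difference went from 0.792 to -3.37; it also turned without the second (-0.718) or the third (-1.47) WT replicate. The library that stood out, the first Mutyh-/- replicate, had 43.3% of these reads in the 31 shared members. CpG-rich members held 6.19% of them there, against 12.9% to 17.1% in the other 11 libraries. The chromosome 2 region, left out of these shares, held 14.5% to 60.9% of all Suz12 peak reads, the most in that library. With the region counted, members held 4922 of 18176 peak reads in that library. In WT they held 3139 of 10239, 6053 of 26182 and 3708 of 13044, so by that count the library lay within the WT range.

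Single peaks were tested by limma on log2(value + 1) over all 775 peaks. A peak is termed called where the unadjusted p was below 0.05 and the log2 difference beyond 0.5, the thresholds used in the study. In Mutyh-/- 22 of 300 members (7.33%) were called, against 5.16% of all peaks, 13 higher (1.94% of all peaks were called higher) and 9 lower (3.23%). In Ogg1-/- 20 members (6.67%) were called, against 3.74% of all peaks, 9 higher (background 1.42%) and 11 lower (2.32%). In DKO 14 members (4.67%) were called, against 2.58% of all peaks, 7 higher (1.68%) and 7 lower (0.903%). After Benjamini-Hochberg adjustment over all peaks, limma kept 1 member in Mutyh-/- (0.129% of all peaks), 0 in Ogg1-/- (0%) and 0 in DKO (0%), where 20 and 14 members had an unadjusted p below 0.05 and the smallest adjusted p was 0.328 and 0.999. With edgeR on recovered whole reads and the authors' factors the adjusted counts were 2, 0 and 0, and with DESeq2 they were 2, 1 and 0; edgeR with TMM factors gave 0, 0 and 0. The adjusted Mutyh-/- call was lost without the first or the third WT replicate and without any 1 of the Mutyh-/- replicates, and 1 Ogg1-/- member had an adjusted call without the second WT or the second Ogg1-/- replicate. The 3 contrasts share the WT libraries.

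The split of directions depended on the scaling. With the authors' factors the median log2 difference over all peaks was -0.63 in Mutyh-/-, -0.57 in Ogg1-/- and -0.06 in DKO, and with TMM factors it was -0.08, -0.09 and 0.09. Under TMM, 20 of 26 called members were higher in Mutyh-/-, 15 of 21 in Ogg1-/- and 11 of 14 in DKO. Of all peaks called under TMM, 22 of 39 were higher in Mutyh-/- (5.03% of peaks called), 18 of 33 in Ogg1-/- (4.26%) and 17 of 20 in DKO (2.58%), and these counts include the members. The replicate numbers paired the Mutyh-/- and WT libraries, and with the replicate block 35 members were called in Mutyh-/- and 0 kept an adjusted p below 0.05. Leaving out the third WT replicate lowered the Mutyh-/- count to 11 and the DKO count to 7, and leaving out the third DKO replicate lowered it to 4.

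The medians were described by kind of member. CpG-rich members had median log2 differences of -0.87 in Mutyh-/-, -0.83 in Ogg1-/- and -0.11 in DKO, beside -0.74, -0.61 and -0.07 at promoter peaks, and 73, 67 and 47 of the 88 were below 0. Members neither CpG-rich nor repeat had medians of 0.03, -0.20 and 0.00, and repeat members 0.24, -0.11 and 0.02. Under TMM the CpG-rich medians were -0.40, -0.34 and 0.04, so those of the single knockouts stayed below the median of all peaks while the DKO median changed sign. Of CpG-rich members 4, 2 and 1 were called (4.55%, 2.27% and 1.14%), all lower, against 5.16%, 3.74% and 2.58% of all peaks. Under TMM 1 of 3, 3 of 7 and 4 of 4 called were higher. Those TMM calls were 3.41%, 7.95% and 4.55% of CpG-rich members, against 5.03%, 4.26% and 2.58% of all peaks. Of the 44 developmental transcription factor members 2, 0 and 1 were called with the authors' factors, where the shares of all peaks were 5.16%, 3.74% and 2.58%. No test was run on these medians.

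**Figure D4:**
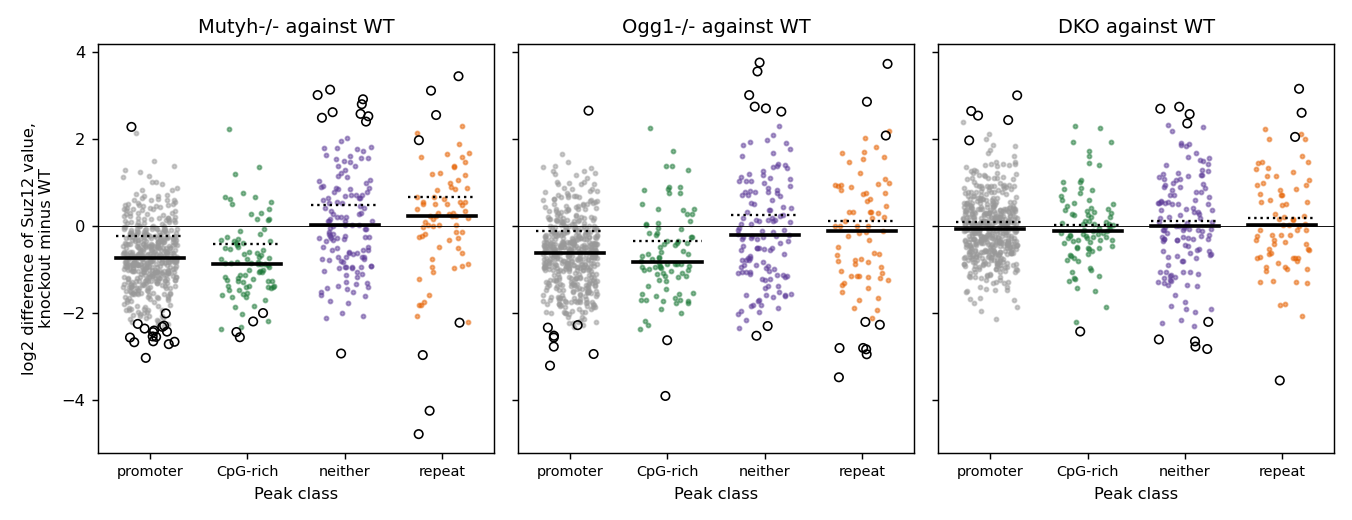
Log2 difference of the Suz12 value (knockout minus WT, authors' scaling) for each peak by kind and genotype; open circles are called peaks, thick lines medians and dotted lines medians with TMM scaling. With the authors' scaling, promoter peaks and CpG-rich members have medians between -0.61 and -0.87 in Mutyh-/- and Ogg1-/-. In DKO every median lies between -0.11 and 0.02 with that scaling and between 0.04 and 0.18 with TMM.

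The member with an adjusted call belonged to the satellite cluster. At Mir101c, 2489 bp from the start (chr9:3035854-3036254, a repeat member), values were 25.5, 30.7 and 24.2 in WT and 0, 0 and 0 in Mutyh-/-, with 12.9, 3.53 and 65.8 in Ogg1-/- and 0, 22.96 and 18.9 in DKO. Mutyh-/- and DKO lay wholly below WT, and Ogg1-/- lay on both sides of it. The mean was at least 28-fold lower in Mutyh-/-, taking 3 reads over the group as the floor of a count of 0, and the adjusted p of limma was 0.0420, with 0.00393 to 0.988 over the alternatives and 0.134 with the replicate block. A neighbouring member (chr9:3015132-3015532) had 25.5, 22.8 and 32.2 in WT, 0, 0 and 2.03 in Mutyh-/-, 6.94, 0 and 4.70 in Ogg1-/- and 11.9, 0 and 0 in DKO, so all 9 knockout values were below all 3 of WT. It was called in each knockout (adjusted p of limma 0.281, 0.915 and 0.999), but the Ogg1-/- call was kept under only 5 of 10 alternatives and lost with TMM factors, and the DKO call was lost with DESeq2 and with edgeR under TMM. A further member of the cluster (chr9:3028619-3029019) went the other way, with 0, 0 and 0 in WT, 8.20, 8.29 and 14.2 in Mutyh-/- and 11.9, 1.04 and 26.0 in DKO, at least 8.35-fold and 10.597-fold higher. Members of 1 array share sequence, and 24.8%, 69.1% and 85.0% of the words of these 3 members occur more than once in the genome.

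Calls with groups apart among members that were not repeat involved small numbers of reads. At A730006G06Rik (intergenic, CpG-rich, chr17:48096759-48097159) values were 8.05, 27.7 and 12.1 in WT and 0, 0 and 0 in Ogg1-/-, at least 15.4-fold lower (adjusted p of limma 0.328, range over alternatives 0.0262 to 0.999). Pax7, a regulator of muscle and neural crest development, had 18.8, 30.7 and 21.5 in WT and 0, 13.5 and 9.13 in Mutyh-/-, a log2 difference of -2.20 ± 1.05 (SE; adjusted p of limma 0.916). Without the first Mutyh-/- replicate the difference was -0.997 and not called, and edgeR and a pseudocount of 4 also lost the call. Foxa1, a pioneer transcription factor of endoderm, had 8.05, 16.8 and 17.4 in WT and 0, 6.21 and 1.01 in Mutyh-/-; its call was kept under 4 of 11 alternatives and 2 of 6 fits that left out 1 library. These 3 CpG-rich members had lower values in the knockout named, with no overlap. Near Dux, a transcription factor of the early embryo, WT was at 0 in 3 libraries and Mutyh-/- at 7.38, 12.4 and 5.07, at least 6.77-fold higher. Smok4a (intron) had 0, 0.990 and 0 in WT and 13.9, 7.07 and 40.4 in Ogg1-/-, with an adjusted p of limma of 0.328. In DKO, Tfap2e, a transcription factor gene with a member in an intron, had 11.9, 15.7 and 23.6 against 4.02, 3.96 and 0 in WT, and Vax2os had 6.80, 10.43 and 15.8 against 0, 3.96 and 0. In the Trpm8 array 1 intronic member had 0, 2.07 and 1.01 in Mutyh-/- against 8.05, 16.8 and 16.1 in WT; Trpm8 encodes a cold-sensing channel. The calls at Tfap2e and Trpm8 were kept in 3 of 6 fits that left out 1 library and that at Vax2os in 2 of 6.

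**Figure D5:**
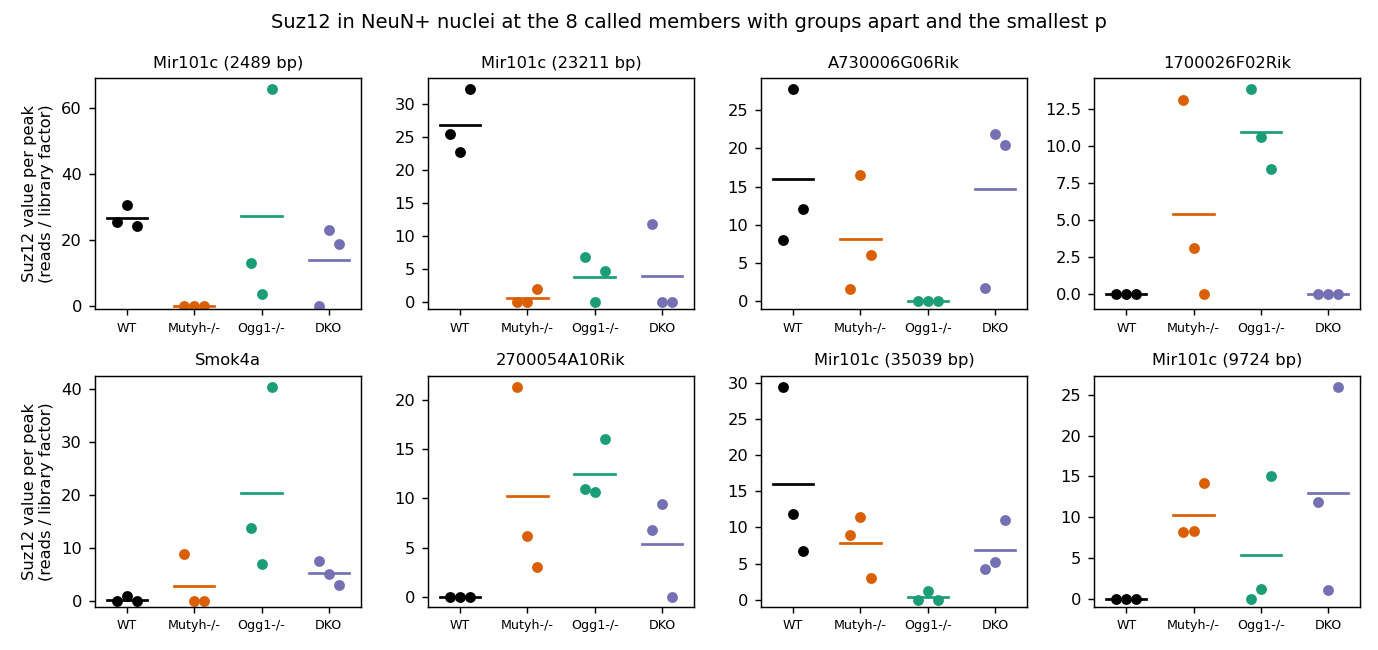
Suz12 value (reads divided by the library factor) in each of 3 libraries per genotype (points; lines are means) at the 8 called members with groups apart and the smallest p in any knockout. Members of the Mir101c cluster are told apart by their distance to the gene start; at the one 2489 bp away WT values of 24.2 to 30.7 stand against 0 in all 3 Mutyh-/- libraries.

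The double knockout was compared with the sum of the single knockouts. This departure was called at 20 members (6.67%), against 5.16% of all peaks, and after adjustment 0 members remained by limma (0% of all peaks, smallest adjusted p 0.244; 20 had an unadjusted p below 0.05). Without the third DKO replicate 13 were called, without the third WT replicate 12, without the first WT replicate 35, without the second Ogg1-/- replicate 34 and without the first DKO replicate 31. An adjusted call at 1 member appeared without the second WT or the third DKO replicate.

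At the H3K27me3 NeuN+ peaks that overlap members, 6 of 78 were called in Mutyh-/- (background 3.78%), 10 in Ogg1-/- (3.82%) and 9 in DKO (3.36%), with 2, 5 and 5 of these higher than WT. Under TMM 7 of 11, 8 of 10 and 5 of 6 were higher. Of all H3K27me3 peaks called with the authors' factors, 41 of 156, 61 of 158 and 70 of 139 were higher. Under TMM these were 76 of 202, 83 of 187 and 75 of 155 (4.89%, 4.53% and 3.75% of all peaks called). After adjustment by limma 3 remained in Mutyh-/- (0.121% of all peaks), 1 in Ogg1-/- (0.0484%) and 0 in DKO (0%). These were 4933422A05Rik, Chl1 and Gm5458, named for their adjusted p after their values had been seen. At 4933422A05Rik the H3K27me3 values were 279, 245 and 128 in WT but 1280, 0 and 0 in Mutyh-/- and 361, 85.7 and 0 in Ogg1-/-. The Mutyh-/- libraries lay on both sides of WT, and the unadjusted limma p of 3.15e-13 became 0.276 with robust variances. Chl1, a neural cell adhesion gene, had 158, 31.0 and 65.5 in WT against 351, 0 and 0, where the robust limma fit across all peaks gave an unadjusted p-value of 0.332. Gm5458 had 136, 60.9 and 31.9 in WT and 475, 0 and 0 in Mutyh-/-. With TMM factors or robust variances 0 peaks kept an adjusted limma call in either single knockout, and in Mutyh-/- 0 did without the second or the third Mutyh-/- replicate; the Ogg1-/- call was lost without the first or second WT or the second or the third Ogg1-/- replicate and became 2 without the first. In Mutyh-/- 1 was left without the first WT replicate, and in DKO 1 appeared without the third DKO replicate. The departure of the double knockout from additivity had an adjusted limma p below 0.05 at 2 of the 78 peaks, against 0.0968% of all peaks. With groups apart, the H3K27me3 peak near P4ha2, a collagen-modifying enzyme, had 30.7, 29.9 and 43.1 in WT, 43.6, 91.8 and 85.9 in Mutyh-/-, 51.5, 104.5 and 116.1 in Ogg1-/- (log2 difference 1.304 ± 0.573, adjusted p of limma 0.983) and 76.5, 73.7 and 80.2 in DKO, all 9 knockout values above those of WT. It was called in 2 of 6 fits that left out 1 library in Ogg1-/- and 1 of 6 in DKO. The H3K27me3 peak near Prl2c2 (chr13:12906820-12907220) went the other way, with 7.67, 7.75 and 6.89 in WT and 0, 0 and 0 in Ogg1-/-, and was called in 6 of 6 such fits (adjusted p of limma 0.983). At Mir101c (chr9:3035859-3036259) the H3K27me3 values were 3.29, 3.32 and 0 in WT and 46.6, 6.27 and 19.5 in Ogg1-/-, called in 5 of 6. Without the first or the third Mutyh-/- replicate 10 peaks were called in Mutyh-/-, and without the third WT replicate 16 in Ogg1-/-.

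At the H3K4me3 NeuN+ peaks that overlap members, 3 of 83 were called in Mutyh-/- (background 0.911%), 7 in Ogg1-/- (0.966%) and 7 in DKO (1.46%), and none kept an adjusted p of limma below 0.05 (0%, 0% and 0% of all peaks; the unadjusted counts were 3, 7 and 7). Of these 2, 6 and 3 were higher than WT. Of all H3K4me3 peaks called with the authors' factors, 43 of 115, 95 of 122 and 61 of 185 were higher. With TMM factors 5 (6.02%), 7 (8.43%) and 8 (9.64%) were called, against 3.75%, 3.81% and 5.54% of all peaks, so the distance from the background was smaller than with the authors' factors. At Filip1l values were 28.3, 14.6 and 9.69 in WT and 42.5, 48.7 and 31.5 in Mutyh-/-, and at Axin2 they were 25.7, 31.2 and 54.9 in WT and 63.2, 82.7 and 79.7 in Mutyh-/-, higher with no overlap at both of these shared members (adjusted p of limma 1 for each). At P4ha2 H3K4me3 was 16.7, 1.95 and 18.3 in WT and 21.4, 32.8 and 39.2 in Ogg1-/-. Lower with no overlap were the peak near Or1f19 in Mutyh-/- (6.54, 8.27 and 0 against 9.004, 16.6 and 14.0 in WT) and, in DKO, a peak of the Mir101c cluster (0, 0 and 0.758 against 2.57, 18.5 and 5.38) and 2 peaks near Gm21190, which had 3.86, 11.7 and 3.23 and 11.6, 5.85 and 5.38 in WT and 0 in every DKO library. These counts moved with single libraries. The Mutyh-/- count was 8 without the first WT or first Mutyh-/- replicate, 6 without the third WT, 5 without the second Mutyh-/- and 1 without the second WT replicate; the Ogg1-/- count was 13 without the first and 3 without the second WT replicate; and the DKO count was 12 without the second DKO replicate.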

How the data were processed

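ChIP-seq for Suz12, H3K27me3 and H3K4me3 was measured in 72 samples of sorted hippocampal nuclei (3 replicates per genotype, fraction and target); 24 input samples of the 96 had no column and are not analysed here. Per the study's methods and the submitters' processing notes, the authors aligned 75-base single-end reads with Bowtie2 2.3.5.1 to GRCm38, called peaks with epic2, kept those found in at least 2 of 3 replicates, and counted reads in peaks of equal width with DiffBind 3.10.1. The deposited values are a normalized signal: reads divided by a library factor. Whole reads were recovered from 100% of values (tolerance 1e-06 of a read), and 0 columns were left without a sample. Handling of duplicates and input is not given in the sources used here.

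Peaks were tested with limma 3.58.1 (trend) on log2(value + 1), 12 libraries per table, Benjamini-Hochberg over each table; a fold change on this scale understates the change of low peaks. edgeR 4.0.16 and DESeq2 1.42.0 on recovered reads were alternatives, and the fit was tested on simulated data. Shares used an exact permutation test and ratios an exact sign-flip test (4096 flips, two-sided). Masking, CpG, 75-base words and the printed bases come from the RefSeq copy of GRCm38.p6. Overlap means at least 1 bp.

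Pairing by replicate number was checked by the correlation of deviations from group means: for Suz12, Mutyh-/- with WT gave 0.388, 0.186 and 0.119, all over 0.1, so the numbers were taken to pair these libraries; 1 pair of Ogg1-/- (0.0714) and of DKO (0.0396) fell below. Peaks named were: called members with groups apart, by p (up to 8 per knockout below 50% masked, up to 4 above); the 10 and 5 highest in WT below and above 50% masked; up to 10, by WT mean, that overlap both an H3K27me3 NeuN+ and a Suz12 NeuN- peak; up to 3 per gene list; and up to 3 mark peaks per knockout. The members and lists were chosen with earlier results of these data known. Replicates are pools of animals, so the spread behind the p-values is one between pools. For Suz12 and H3K27me3 in NeuN+ the prior degrees of freedom of limma were infinite. There each peak was tested with the variance of the trend over all peaks, and its own spread between pools had no weight. For H3K4me3 in NeuN+ the prior was 24.9, beside 8 residual degrees of freedom.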

Additional observations from a re-analysis of the deposited data

Results flagged for a closer look

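At 2 H3K27me3 NeuN+ peaks that overlap members, the double knockout differed from what the single knockouts add up to, after adjustment by limma (2 of 78, against 0.0968% of all peaks of the table). At 4933422A05Rik the departure was 4.68 on the log2 scale (adjusted p of limma 2.91e-05), with values of 1280, 0 and 0 in Mutyh-/-, 361, 85.7 and 0 in Ogg1-/-, 708, 0 and 107 in DKO and 279, 245 and 128 in WT. At Chl1 it was 3.55 (adjusted p of limma 0.0461), with values of 351, 0 and 0 in Mutyh-/-, 273, 62.7 and 0 in Ogg1-/-, 236, 0 and 122 in DKO and 158, 31.0 and 65.5 in WT. All knockout groups spanned from 0 to above the WT range at both peaks. The second and the third Mutyh-/-, the third Ogg1-/- and the second DKO replicate were at 0 at both, and also at the H3K27me3 peak of Gm5458; why was not tested. Under TMM factors the adjusted p of limma was 0.952 at both peaks and with robust variances it was 0.990 at both. Over the 12 fits that left out 1 library, the adjusted call was kept in 8 at 4933422A05Rik and in 3 at Chl1.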

How the results depend on the processing

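A median member held 4 to 10 reads per library. The H3K27me3 ratio kept its direction and call under 6 of 6 (1.75 to 3.94). Counting CpG-rich members only, with repeat peaks left out of the total, a choice made after the data were seen, gave share differences of -1.92 (Mutyh-/-), -0.0660 (Ogg1-/-), 0.719 (DKO) and -0.421 (9 knockout libraries); with repeat peaks kept in the total Ogg1-/- was at 0.133. Leaving out 1 library gave -0.556 to 15.95 for Mutyh-/-, -2.18 to 8.23 for Ogg1-/- and -3.37 to 4.68 for DKO, with DKO at -0.718 and -1.47 without the second and the third WT replicate. The Suz12 ratio was -0.64 with medians, and, by choices made after the data were seen, -0.75 without shared peaks, 0.34 and -0.54 for CpG-rich peaks with and without shared ones, and -0.98 for members neither CpG-rich nor repeat without shared ones. The H3K4me3 ratio was 0.46 without repeat peaks and, by later choices, -1.06 with medians, -0.88 without shared members, 0.96 for CpG-rich members and 0.76 for CpG-rich mark peaks. A gap of 1000 bp gave 135 overlaps with H3K27me3, and a limit of 25% masked gave 125 repeat members.

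Suz12 calls with the replicate block, a fit that pairs libraries by number, were 35, 35 and 25 in Mutyh-/-, Ogg1-/- and DKO and 45 for the departure from additivity; only the Mutyh-/- numbers met the criterion for pairing. Keeping the upper 75% of peaks by mean, which also takes members below that limit out of the count, gave 11, 11 and 2 calls. Leaving the chromosome 2 and repeat peaks out of the fit, which also takes the 77 repeat members out of the count, gave 11 in Ogg1-/- and 9 in DKO. Fitting 6 libraries gave 12 in Mutyh-/-. Leaving out 1 library gave 11 to 27, 15 to 28 and 4 to 19 calls, and 12 to 35 for the departure, with 0 to 1 adjusted. H3K27me3 calls were 11 with TMM and 10 with the block in Mutyh-/- and 5 with robust variances in DKO; leaving out 1 library gave 6 to 10, 7 to 16 and 6 to 10. H3K4me3 calls in Mutyh-/- were 5 with TMM, 1 with robust variances and 5 with the block, and 4 with robust variances in Ogg1-/- and in DKO; leaving out 1 library gave 1 to 8, 3 to 13 and 6 to 12. Here and above, counts under alternatives other than limma with TMM factors are of members or of the peaks that overlap them. The share of all peaks called in the same fits is not given, so a change at members cannot be told from one in the whole table. Where not stated otherwise, the cause was not tested.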
